A study of Mus musculus with 40 samples.

Results

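Double-negative 3 (DN3) thymocytes are immature T-cell precursors that have committed to the T lineage and are assembling a T-cell receptor beta chain. Their response to loss of Zmiz1 was set against their response to a block of Notch1, gene by gene, as (DeltaMxCre minus MxCre) minus (AntiNRR minus IgG). These 4 DN3 groups of 3 libraries make up 12 of the 40 libraries of the series. The DeltaMxCre group came from MxCre Zmiz1f/f mice and the MxCre group from mice with MxCre alone, on C57BL/6. Both received pI-pC, which switches on the Cre through the interferon-responsive Mx1 promoter, and both were sorted 8 weeks later, from 3 mice per group. The AntiNRR group came from mice given the anti-NRR antibody, which holds Notch1 in its silent form by binding the negative regulatory region of that receptor, and the IgG group from mice given an isotype control. Both were sorted 24 hours later, and the labels used here give neither the number of mice nor a genotype for them. The Mx1 promoter is not specific to thymocytes, so other blood and tissue cells of the DeltaMxCre mice may have lost Zmiz1 as well. The interval before sorting and the agent given differ between the 2 experiments, so gene, time and agent cannot be told apart in the difference between them. The question asked of the data was which genes answer to the loss of Zmiz1 as they do to a block of Notch1, which answer in the opposite direction, and which answer in 1 experiment only.

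As background, a Notch receptor that meets its ligand is cut, and its freed intracellular domain enters the nucleus and joins Rbpj and Mastermind-like proteins to switch on target genes. In DN3 cells Notch1 signalling sustains genes such as Ptcra, Il2ra, Hes1, Dtx1, Notch3 and Myc, and together with the pre-T-cell receptor it carries cells through beta selection. Zmiz1 is a nuclear protein of the Pias-like family that binds Notch1 on chromatin and acts as its co-activator at a subset of targets.

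All adjusted p values below are Benjamini-Hochberg adjusted values of edgeR's quasi-likelihood test over every gene tested, and a gene was called, or passed, where its value was under 0.05. The "deletion effect" is the log2 fold change of DeltaMxCre over MxCre, the "block effect" that of AntiNRR over IgG, and the "difference" is the first minus the second. Levels are read counts scaled to a common library size (CPM), given for replicates 1, 2 and 3 in that order, with n = 3 libraries per group throughout. The labels do not say that the antibody libraries came from separate mice, so p values there measure the spread between libraries. The 12 libraries held 11695668 to 19133149 counts each. Pairwise correlations of log2 CPM ran from 0.962 to 0.980 within groups and from 0.936 to 0.973 between them. The labels describe the sorted DN3 cells as CD44+CD25-, while Il2ra, which encodes CD25, stood at 543 to 5886 CPM and Cd44 at 0.551 to 7.23. Of the markers of other cells, Pax5 of B cells, Elane and S100a8 of myeloid cells, Ncr1, Klrd1 and Gzmb of natural killer cells, and Krt5, Krt8 and Foxn1 of thymic epithelium were at 0 in all 4 groups. Other members of the same lists were present in every library, such as Cd79b at 18.8 to 34.2 CPM, Lyz2 at 9.52 to 23.6, Nkg7 at 7.62 to 20.3, Gzma at 71.2 to 239 and Epcam at 55.9 to 87.2. The 10 B-cell markers summed to 23.5 to 43.7 CPM over the 12 libraries and the 12 myeloid markers to at most 31.1. The share of all counts taken by the nuclear RNA Malat1 was 0.324% to 0.711% in MxCre, 0.961% to 1.33% in DeltaMxCre, 1.06% to 1.39% in IgG and 1.17% to 1.33% in AntiNRR. These shares did not overlap between MxCre and DeltaMxCre, but did between IgG and AntiNRR. A fit with this share as a covariate therefore cannot fully separate it from the deletion, which holds for every such fit below.

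Zmiz1 (chromosome 14, 25459185 to 25666743, plus strand, GRCm38) checked the labels. It stood at 121, 132 and 116 CPM in DeltaMxCre against 298, 360.4 and 334 in MxCre, and at 324, 311 and 324 in AntiNRR against 310.1, 285 and 260.3 in IgG. The deleted libraries were all lower than their controls, by a deletion effect of -1.41 (SE 0.131, adjusted p = 0.000144). The block effect was 0.16 (SE 0.0975, adjusted p = 0.436) and the difference -1.59 (SE 0.158, adjusted p = 8.4e-07).

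The difference passed the test in 167 of 13557 genes (1.23%), 103 of them positive (0.76%) and 64 negative (0.472%). The deletion effect alone passed in 183 of 12675 genes (1.44%), 125 higher (0.986%) and 58 lower (0.458%). The block effect alone passed in 710 of 12658 genes (5.61%), 335 higher (2.65%) and 375 lower (2.96%). Among the 12275 genes tested in all 3 ways, 15 passed in both experiments with opposite signs (0.122%) and 27 with the same sign (0.22%). A further 45 genes passed for the deletion and for the difference but not for the block (0.367%), and 78 passed for the block and for the difference but not for the deletion (0.635%). In 26 genes the difference alone passed (0.212%). The remaining called genes, 96 for the deletion (0.782%) and 587 for the block (4.78%), did not pass in the other experiment or in the difference, so their response is undecided between shared and single. No effect passed in 11401 (92.9%). Across all 12275 genes, most of them with no called effect, the 2 effects correlated weakly. The Pearson correlation was 0.0633 and the Spearman correlation 0.121 over genes, which are not independent replicates. The 183 genes called for the deletion included the 15 opposite and 27 shared genes, which were also called for the block. Over all genes tested the block called 5.61%. The Wald test of DESeq2 called 343 of 13976 genes for the difference (2.45%), 520 of 13201 for the deletion (3.94%) and 921 of 13981 for the block (6.59%). The counts moved with single libraries. Without IgG 2, IgG 3 or MxCre 3 the difference passed in 99, 101 or 290 genes, without DeltaMxCre 2, DeltaMxCre 3, MxCre 1 or MxCre 3 the deletion effect in 15, 12, 81 or 403, and without IgG 2 or IgG 3 the block effect in 353 or 351.

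**Figure D1:**
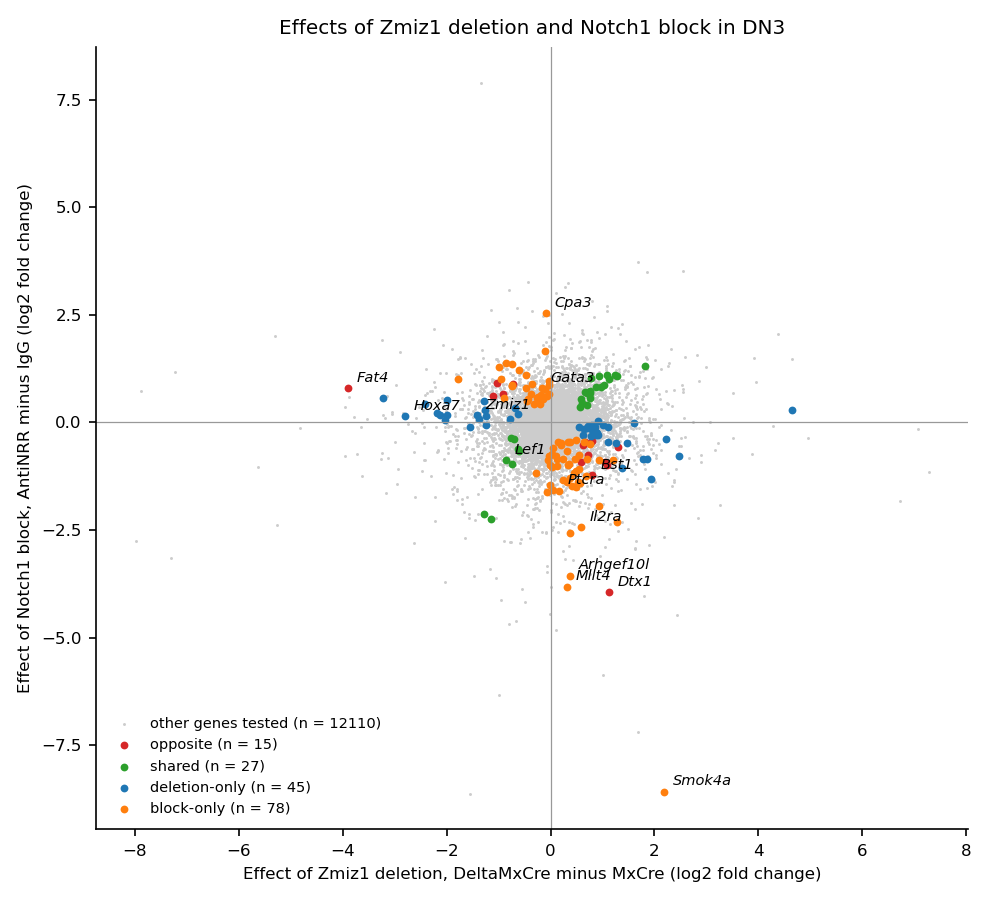
Log2 deletion effect (horizontal) against log2 block effect (vertical), 1 point per gene, for the 12275 genes tested in all 3 ways, coloured by the class of response. The 15 opposite genes lie in the upper left and lower right, the 27 shared genes in the upper right and lower left, and the single-experiment genes spread along the 2 axes. Smok4a is drawn at its fitted block effect, which depends on the prior count because its AntiNRR libraries hold 0 counts.

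The 15 opposite genes were led by Dtx1, which encodes the ubiquitin ligase Deltex1 and is a Notch target (chromosome 5, 120680202 to 120711927, minus strand). It stood at 386, 356 and 383 CPM in DeltaMxCre against 138, 188 and 192 in MxCre, and at 4.95, 13.4 and 15.8 in AntiNRR against 162, 191 and 162 in IgG. Every deleted library lay above its controls and every AntiNRR library far below its own, while the MxCre and IgG controls overlapped. The deletion effect was 1.13 (SE 0.142, adjusted p = 0.00115), a 2.19-fold rise, and the block effect was -3.94 (SE 0.428, adjusted p = 0.00576), a 15.4-fold fall. The difference was 5.06 (SE 0.468, adjusted p = 0.000889). In a bulk library more cells that express a gene and more RNA per cell cannot be told apart, which holds for every level reported here.

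Of the 15 genes, 10 rose after deletion and fell after the block, and 5 did the reverse. Bst1, a surface ADP-ribosyl cyclase also known as CD157 (chromosome 5, 43818885 to 43843986, plus strand), stood at 176, 209 and 175 CPM in DeltaMxCre against 91.4, 118 and 115 in MxCre. After the block it held 66.4, 55.4 and 62.5 CPM against 143, 131 and 158 in IgG. The groups of each experiment did not overlap, and the difference was 2.02 (SE 0.190, adjusted p = 5.5e-07). Cd82, a tetraspanin of the cell surface (chromosome 2, 93419111 to 93463140, minus strand), stood at 248, 229.7 and 312 CPM against 144, 170.1 and 174 on deletion and at 123, 134 and 118 against 199, 217 and 219.6 on block. It was 1.64-fold higher in the first case and 1.69-fold lower in the second, with no overlap in either, and the difference was 1.46 (SE 0.178, adjusted p = 1.33e-05).

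Slc5a3, a sodium-coupled myo-inositol transporter (chromosome 16, 92058322 to 92087473, plus strand), stood at 147, 175 and 139 CPM in DeltaMxCre against 90.9, 115 and 89.5 in MxCre. Its AntiNRR libraries held 103, 119.9 and 106 CPM against 141, 141 and 169.8 in IgG, all lower than their controls, and the difference was 1.10 (SE 0.191, adjusted p = 0.00157). Edaradd, the adaptor of the ectodysplasin receptor (chromosome 13, 12472632 to 12520438, minus strand), rose 2.12-fold after deletion and fell 1.97-fold after the block, from much lower levels (40.8, 30.9 and 41.1 CPM in DeltaMxCre, 10.3, 12.1 and 10.8 in AntiNRR). Its controls held 20.4, 16.2 and 17.4 CPM in MxCre and 24.2, 20.6 and 20.7 in IgG, between the 2 manipulated groups. Zcchc2, Pcmtd1 and Tbrg3 moved the same 2 ways. Their differences were 1.49 (SE 0.181, adjusted p = 1.33e-05), 1.22 (SE 0.161, adjusted p = 3.45e-05) and 1.85 (SE 0.232, adjusted p = 1.9e-05). Khdc1a and Abhd15, outside the naming rule and listed because they complete the class, had differences of 1.93 (adjusted p = 0.0196) and 1.14 (adjusted p = 0.00293). Khdc1a belongs to a family of close copies, and 1 of its AntiNRR libraries, at 44.2 CPM, lay above the lowest IgG library, at 44.0.

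Fat4, an atypical cadherin linked to planar cell polarity and Hippo signalling (chromosome 3, 38886940 to 39011985, plus strand), led the 5 genes of the reverse pattern. It stood at 0.699, 1.94 and 1.54 CPM in DeltaMxCre against 22.0, 32.8 and 9.48 in MxCre, and at 59.2, 51.3 and 43.5 in AntiNRR against 28.4, 30.9 and 29.9 in IgG. The gene was close to silent in the deleted libraries and highest in the AntiNRR libraries, with no overlap in either experiment. The deletion effect was -3.89 (SE 0.497, adjusted p = 0.00190), the block effect 0.79 (SE 0.196, adjusted p = 0.0163) and the difference -4.69 (SE 0.505, adjusted p = 1.3e-05). Spats2 (chromosome 15, 99125916 to 99213215, plus strand), stood at 54.6, 43.3 and 36.8 CPM against 103, 74.4 and 102 on deletion and at 144, 177 and 143 against 90.5, 86.1 and 68.2 on block. It fell 2.05-fold and rose 1.89-fold, with a difference of -1.98 (SE 0.234, adjusted p = 1.3e-05). Nynrin (chromosome 14, 55854010 to 55874736, plus strand) had a difference of -1.73 (SE 0.275, adjusted p = 0.000560), and B230120H23Rik, outside the naming rule, one of -1.60 (SE 0.286, adjusted p = 0.00220).

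Rn45s, the 45S precursor of ribosomal RNA, was the most abundant of the 15, at 48344, 46512 and 51232 CPM in DeltaMxCre against 80054, 91034 and 73004 in MxCre. Its AntiNRR libraries held 46651, 54831 and 67573 CPM against 36610, 26494 and 27701 in IgG, and the difference was -1.64 (SE 0.188, adjusted p = 1.3e-05). Ribosomal RNA was depleted during library making, so these levels reflect what the depletion left. The part of depletion in the result was not tested.

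Membership of the class was less stable than the directions. In every alternative run, single libraries left out included, all 15 genes kept the sign of both effects. Both effects still passed with opposite signs in only 3 of the 15 without DeltaMxCre 2 and in 3 without DeltaMxCre 3, and the class as a whole then held 3 genes each time. It held 33 genes without MxCre 3, 9 without MxCre 1, 9 without AntiNRR 1, 8 without IgG 2 and 7 without IgG 3. With the Malat1 share as a covariate 5 of the 15 remained in the class and 13 still passed in the difference. That share differs between MxCre and DeltaMxCre without overlap, so the covariate and the deletion cannot be fully told apart in calls lost there. When the difference was fitted on all 24 libraries of the table, 5 of the 15 passed in it. Near the threshold, Zcchc2 and Abhd15 entered with a deletion adjusted p of 0.0413 each and Edaradd with a block adjusted p of 0.0486. Kcnh3, Bfsp2 and Hdgfrp3 stayed outside with deletion adjusted p values of 0.0519, 0.0597 and 0.0879 and the opposite sign in the block.

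**Figure D2:**
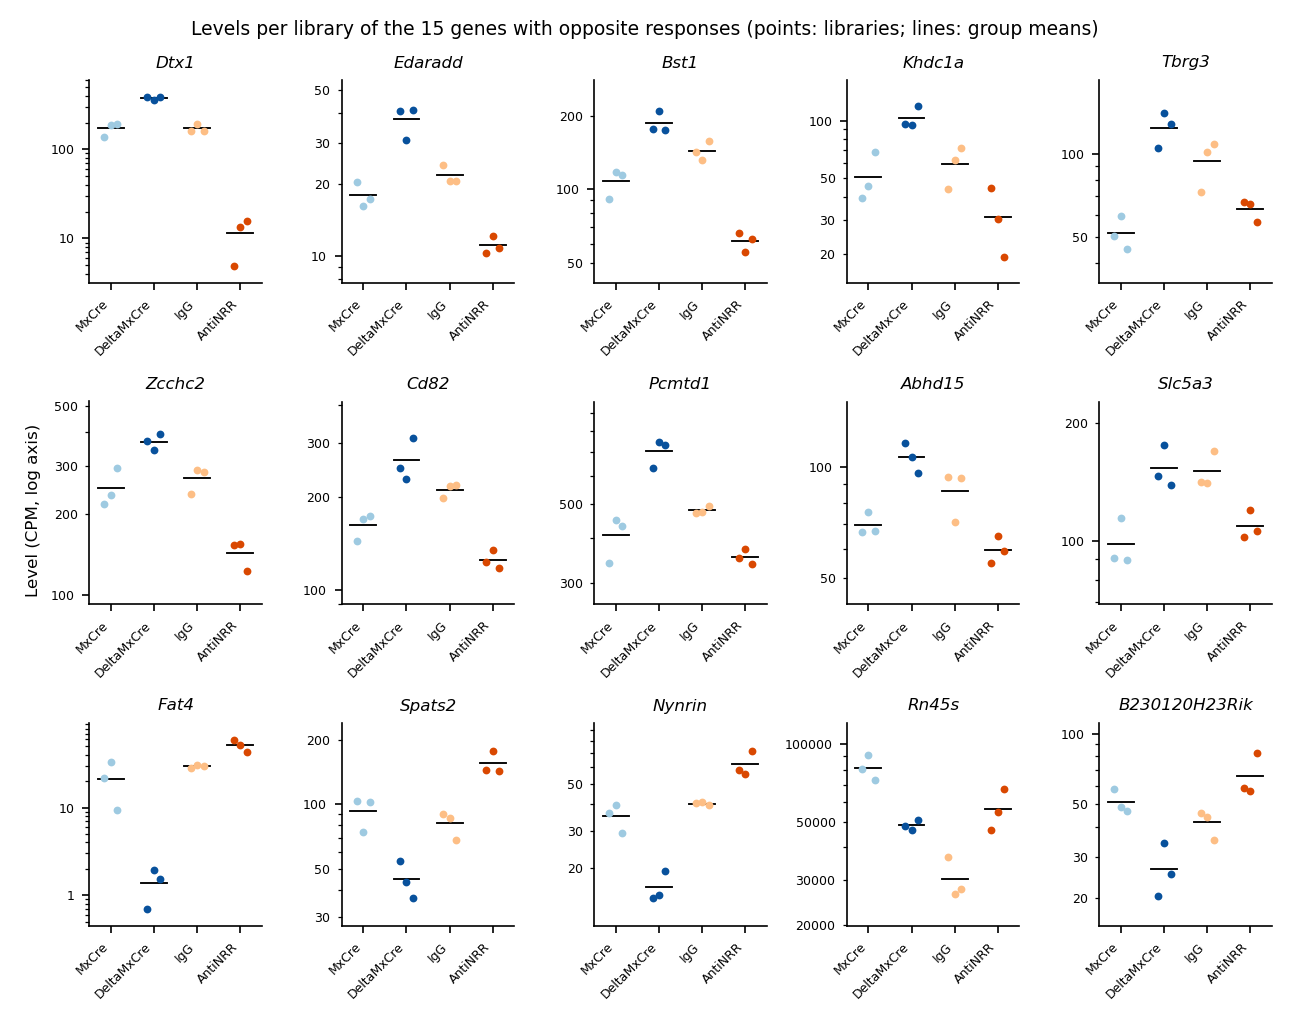
CPM on a log axis in each of the 12 libraries for the 15 opposite genes, with points for libraries and lines for group means. In Dtx1 the DeltaMxCre libraries (356 to 386 CPM) lie above and the AntiNRR libraries (4.95 to 15.8) below both controls, and in Fat4 the order is turned around.

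The 27 shared genes passed in both experiments with the same sign, 19 higher and 8 lower, and 0 of them passed in the difference by edgeR, 2 had an unadjusted p under 0.05 there and DESeq2 called 0. Their median effect was 0.71 for the deletion and 0.68 for the block, beside -0.01 and -0.01 over all genes tested in each. The demand for a call in both experiments itself sets these medians away from those of all genes. Lef1, an HMG-box transcription factor of the T lineage that is also a Notch target (chromosome 3, 131110471 to 131224356, plus strand), led those that fell. It stood at 182, 176 and 156 CPM in DeltaMxCre against 339, 322 and 274 in MxCre, and at 137, 182 and 161 in AntiNRR against 298, 316 and 273 in IgG. Both manipulated groups lay below all controls, by 1.80-fold and 1.85-fold (deletion effect -0.85, SE 0.132, adjusted p = 0.00622; block effect -0.88, SE 0.114, adjusted p = 2.83e-05). The difference was 0.02 (SE 0.173).

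Rag1, the recombinase that cuts receptor gene segments (chromosome 2, 101638282 to 101649501, minus strand), stood at 1861, 2010 and 2251 CPM against 3180, 4039 and 3321 on deletion and at 4248, 3498 and 3511 against 4943, 4587 and 4913 on block. It fell 1.70-fold and 1.28-fold without overlap in either experiment, and the difference was -0.42 (SE 0.160, adjusted p = 0.232). Nop56, a core protein of box C/D small nucleolar particles and a Myc target (chromosome 2, 130274430 to 130279313, plus strand), fell 1.51-fold and 1.58-fold. Ptpn13, a non-receptor tyrosine phosphatase, fell 2.20-fold and 4.73-fold, from 27.7, 37.1 and 29.6 CPM in MxCre and from 5.54, 11.1 and 14.9 in IgG. Csda, a cold-shock domain protein, fell 1.67-fold and 1.94-fold, and Rpsa, a ribosomal protein gene whose many pseudogenes make its counts uncertain, fell 1.62-fold and 1.31-fold. Impdh2, a rate-limiting enzyme of guanine nucleotide synthesis named here after its values were seen, fell 1.54-fold in each experiment, from 259.6, 232 and 291 to 198, 162 and 144 CPM on deletion and from 209, 177 and 192 to 132, 118 and 126 on block.

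Of the 19 shared genes that rose, St8sia1, the GD3 ganglioside synthase (chromosome 6, 142821545 to 142964452, minus strand), stood at 183, 183 and 191 CPM in DeltaMxCre against 110.1, 98.3 and 79.1 in MxCre. AntiNRR libraries held 281, 286 and 257 CPM against 163, 143 and 158 in IgG, and the difference was 0.13 (SE 0.174). Bmf, a BH3-only protein that promotes apoptosis (chromosome 2, 118528757 to 118549687, minus strand), stood at 152, 154 and 134 CPM against 84.8, 90.4 and 66.3 on deletion, and at 214, 242 and 176 against 120.5, 121 and 114 on block. It rose 1.84-fold and 1.78-fold with no overlap, and its difference was 0.03 (SE 0.191). Cd53, a tetraspanin of leukocytes (chromosome 3, 106759921 to 106790149, minus strand), rose 2.43-fold and 2.11-fold, and Clec12a, an inhibitory C-type lectin receptor (chromosome 6, 129342691 to 129365303, plus strand), 2.13-fold and 2.14-fold. Coro7, a coronin, rose 1.69-fold and 1.61-fold and C1qtnf1 1.71-fold and 2.05-fold. Among genes named after their values were seen, the Ras exchange factor Rasgrp1 had effects of 0.59 and 0.55 and Themis, which tunes T-cell receptor signals during selection, of 0.57 and 0.36, deletion first. The class held 1 gene without DeltaMxCre 2, 0 without DeltaMxCre 3, 16 without MxCre 1, 13 without MxCre 2, 63 without MxCre 3 and 17 without IgG 2. With the Malat1 share, which goes with the deletion, as a covariate, 5 of the 27 remained in the class.

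The promoters of the shared genes are shown because 2 of those that fell hold the E-box CACGTG, which Myc and Max bind, and the promoter of Rag1 holds GTGGGAA, which Rbpj binds. Windows are from RefSeq on GRCm38.p6, with the motif in capitals and 45 bases on either side.
Impdh2, chr9:108560281-108560376, plus strand, motif 110 bases before the start: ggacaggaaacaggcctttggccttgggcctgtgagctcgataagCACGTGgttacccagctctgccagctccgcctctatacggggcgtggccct
Lef1, chr3:131156170-131156265, plus strand, motif 79 bases before a start: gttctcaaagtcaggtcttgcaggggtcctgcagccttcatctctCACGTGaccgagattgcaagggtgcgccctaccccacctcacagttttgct
Rag1, chr2:101649534-101649630, minus strand, motif 53 bases before the start: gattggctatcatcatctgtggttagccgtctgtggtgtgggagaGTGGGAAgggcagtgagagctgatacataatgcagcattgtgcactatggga

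Both motifs were searched on both strands in the window from 250 bases before to 50 after each start. The 2 motifs can overlap, since CACGTG ends in the letters GTG with which GTGGGAA begins. Lef1 and Stk17b hold both, without overlap. In Lef1 the 2 motifs lie in windows of different starts. In Stk17b CACGTG lies 69 and GTGGGAA 244 bases before the same start. GTGGGAA was in 4 of 22 shared promoters (18.2%; Bmf, Lef1, Rag1 and Stk17b), 4 of 35 deletion-only promoters (11.4%), 7 of 68 block-only promoters (10.3%) and 0 of 11 opposite promoters. It was in 717 of all 9769 promoters of tested genes (7.34%). CACGTG was in 3 of 22 shared promoters (13.6%), 1 of 35 deletion-only (2.86%), 7 of 68 block-only (10.3%) and 0 of 11 opposite promoters, beside 1146 of 9769 (11.7%). Of all genes called lower after the block, 56 of 306 promoters held CACGTG (18.3%), and of those called higher 23 of 262 did (8.78%). For GTGGGAA these counts were 20 of 306 (6.54%) and 15 of 262 (5.73%), both below the share in all promoters. A match is a description of letters in this window only.

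Of the 45 genes that answered to the deletion and not detectably to the block, 27 rose and 18 fell, and all passed in the difference. In the block, where by definition 0 passed in edgeR, 11 had an unadjusted p under 0.05 and DESeq2 called 0. Hoxa7, a homeobox transcription factor of progenitors (chromosome 6, 52214491 to 52221854, minus strand), stood at 2.87, 2.86 and 4.46 CPM in DeltaMxCre against 28.4, 26.4 and 17.0 in MxCre, and at 31.9, 25.4 and 37.5 in AntiNRR against 38.0, 11.4 and 36.1 in IgG. The deleted libraries lay far below every other library, while AntiNRR and IgG overlapped. It fell 6.93-fold (deletion effect -2.79, SE 0.329, adjusted p = 0.00115), the block effect was 0.15 (SE 0.353, adjusted p = 0.904) and the difference -2.96 (SE 0.498, adjusted p = 0.00160). Ptk7, a pseudokinase receptor of planar cell polarity (chromosome 17, 46564471 to 46629504, minus strand), stood at 8.62, 8.90 and 9.41 CPM against 33.2, 30.9 and 43.8 on deletion and at 56.6, 37.4 and 48.0 against 47.9, 43.7 and 35.1 on block. It fell 3.95-fold on deletion, its block groups overlapped, and the difference was -2.17 (SE 0.306, adjusted p = 9.3e-05).

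Sav1, the scaffold that joins the Hippo kinases (chromosome 12, 69965012 to 69987002, minus strand), stood at 8.93, 6.31 and 8.48 CPM in DeltaMxCre against 30.2, 29.8 and 37.5 in MxCre. In AntiNRR it held 26.7, 23.0 and 15.1 CPM against 19.4, 23.7 and 19.8 in IgG, which overlap. The difference was -2.09 (SE 0.375, adjusted p = 0.00227). Maged1 (chromosome X, 94535474 to 94542143, minus strand) fell 4.53-fold and Myzap (chromosome 9, 71504347 to 71592360, minus strand) 2.93-fold on deletion, with block effects of 0.23 (SE 0.253) and -0.11 (SE 0.177). Cdc42ep4, an effector of Cdc42 that acts on actin, fell 4.38-fold, with a block effect of 0.16 (SE 0.294). Gprasp2 and Fam171a1 had 2 of the largest negative differences, -2.86 (adjusted p = 0.0190) and -3.80 (adjusted p = 0.0242), from levels of at most 16.8 and 12.3 CPM. Both calls were lost without several single libraries, at adjusted p values up to 0.0729 and 0.111. Named after its values were seen, the lipoprotein receptor Lrp1 fell 2.61-fold on deletion, with a block effect of 0.07 (SE 0.118).

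Among the 27 that rose, B4galnt2, a glycosyltransferase that makes the Sda blood group antigen (chromosome 11, 95865943 to 95914891, minus strand), stood at 34.9, 49.3 and 65.8 CPM in DeltaMxCre against 6.75, 16.0 and 9.65 in MxCre. In AntiNRR it held 13.0, 9.89 and 13.4 CPM against 14.6, 16.6 and 16.4 in IgG. The deleted libraries were above all the others, and the difference was 2.60 (SE 0.415, adjusted p = 0.000611). Trib2, a pseudokinase and Notch target (chromosome 12, 15791727 to 15816922, minus strand), stood at 75.6, 55.0 and 52.1 CPM against 24.4, 29.3 and 13.0 on deletion and at 13.7, 11.4 and 11.1 against 16.9, 19.4 and 14.2 on block. It rose 2.77-fold on deletion. Although its AntiNRR libraries lay below all IgG libraries, the block effect of -0.48 (SE 0.313) did not pass, at an adjusted p of 0.497, and the difference was 1.93 (SE 0.368, adjusted p = 0.00426). Ap1s3, a clathrin adaptor subunit (chromosome 1, 79606876 to 79671972, minus strand), rose 2.02-fold on deletion with a block effect of -0.06 (SE 0.133).

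Zfp488 (chromosome 14, 33967070 to 33978764, minus strand) rose 1.88-fold and Lrrc33, a carrier of latent TGF-beta, 1.53-fold, each with a block effect of -0.28 that did not pass. Vmn1r58, whose receptor family has many close copies, rose 1.71-fold. Pydc4, an interferon-inducible gene, stood at 3.11, 5.23 and 6.77 CPM in DeltaMxCre against 0.418, 0.00 and 0.169 in MxCre, a rise from near 0 (difference 4.32, SE 0.961, adjusted p = 0.0165). That call was lost without DeltaMxCre 3 (adjusted p = 0.0506) or IgG 2 (adjusted p = 0.0521). Named after their values were seen, Vasn, which binds TGF-beta, rose 3.06-fold, Deptor, an inhibitor of mTOR, 2.59-fold, and the class Ib antigens H2-Q4 and H2-Q8, near-identical copies whose counts are uncertain, 1.80-fold and 3.60-fold. Vasn lies within the shared gene Coro7, on the other strand, so the 2 genes may share reads. For Deptor the block effect was -1.07 (SE 0.458, adjusted p = 0.219), so a response of the opposite sign was not resolved. The sign of the block effect was opposite to that of the deletion effect in 41 of the 45 genes (91.1%), beside 44.1% of all 12275 genes, a share that the demand for a called difference itself raises.

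Of the 44 placed genes of this class, 4, Zmiz1 among them, lay on chromosome 14 (9.09%, beside 3.32% of all placed genes) and 7 on chromosome 9 (15.9%, beside 5.6%). Shares away from those of all genes were also seen in other classes, such as 3 of 13 placed opposite genes on chromosome 1 (23.1%, beside 5.71%), and none of these was tested. Besides Zmiz1 itself, Zfp488 and Colq lie within 10 Mb of Zmiz1 (4.55%, beside 0.827%). Colq, the collagen tail of acetylcholinesterase (chromosome 14, 31523082 to 31591343, minus strand), named after its values were seen, fell 2.36-fold and Zfp488 rose. The class held 8 genes without DeltaMxCre 2, 5 without DeltaMxCre 3, 29 without MxCre 1 and 101 without MxCre 3. Of the 45 genes, 10 remained with the Malat1 share as a covariate, and 4 when the difference was fitted on all 24 libraries. With the Malat1 covariate, which goes with the deletion, Hoxa7 still passed in the difference, and B4galnt2, Trib2, Ap1s3 and Sav1 did not.

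Of the 78 genes that answered to the block and not detectably to the deletion, 29 rose and 49 fell. In the deletion, where by definition 0 passed in edgeR, 32 had an unadjusted p under 0.05 and DESeq2 called 17, so the class does not separate genes without a deletion effect from genes whose effect fell short of the edgeR threshold. Ptcra, the invariant alpha chain of the pre-T-cell receptor (chromosome 17, 46755663 to 46763712, minus strand), stood at 83.3, 57.1 and 73.1 CPM in AntiNRR against 228, 208 and 206 in IgG, and at 188, 201 and 162 in DeltaMxCre against 161, 201 and 135 in MxCre. The AntiNRR libraries were below all others and the deletion groups overlapped. The block effect was -1.59 (SE 0.132, adjusted p = 5.61e-08), the deletion effect 0.16 (SE 0.155, adjusted p = 0.677) and the difference 1.73 (SE 0.207, adjusted p = 1.3e-05). Il2ra (chromosome 2, 11642807 to 11693193, plus strand) stood at 543, 848 and 579 CPM in AntiNRR against 3206, 3792 and 3635 in IgG, and at 4437, 4915 and 5886 in DeltaMxCre against 2371, 3493 and 4379 in MxCre. It fell 5.40-fold on block, and although every deleted library lay above every MxCre library the deletion effect of 0.59 (SE 0.194) did not pass, at an adjusted p of 0.158. The difference was 3.01 (SE 0.323, adjusted p = 0.000961).

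Arhgef10l, a guanine nucleotide exchange factor (chromosome 4, 140514485 to 140666012, minus strand), stood at 10.8, 20.2 and 13.1 CPM in AntiNRR against 173, 178 and 164 in IgG. Its DeltaMxCre libraries held 170.4, 193 and 222 CPM against 129, 208 and 118 in MxCre, which overlap. It fell 11.8-fold on block and the difference was 3.93 (SE 0.326, adjusted p = 1.33e-05). Cdh23, a cadherin, fell 5.01-fold on block (chromosome 10, 60302748 to 60696490, minus strand). It stood at 121, 136 and 132 CPM in DeltaMxCre against 30.7, 83.0 and 49.2 in MxCre, without overlap, yet its deletion effect of 1.27 (SE 0.321) had an adjusted p of 0.113. Pld4 fell 2.17-fold and AW011738 2.82-fold, each with a deletion effect of 0.48 that did not pass. Mllt4, the adherens junction protein afadin (chromosome 17, 13760539 to 13906150, plus strand), fell 14.1-fold on block, with overlapping deletion groups. Its difference of 4.12 (SE 0.649, adjusted p = 0.0190) was lost without DeltaMxCre 3, MxCre 2, AntiNRR 3, IgG 2 or IgG 3, at adjusted p values up to 0.066.

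Smok4a, annotated as a transcribed pseudogene of a multi-copy kinase family (chromosome 17, 13521456 to 13528433, plus strand), lies near Mllt4. It had 0 counts in all 3 AntiNRR libraries against 156 in the IgG libraries, at least 44.5-fold lower with a floor of 3 counts over the group. It stood at 17.5, 18.1 and 20.7 CPM in DeltaMxCre against 0.657, 3.75 and 8.07 in MxCre, and the adjusted p of its difference was 3.71e-05. Il7r, the interleukin 7 receptor alpha chain (chromosome 15, 9505788 to 9530176, minus strand), fell 1.99-fold on block, from 174, 152 and 169.6 to 90.2, 72.9 and 86.4 CPM. Its DeltaMxCre libraries, at 124, 141 and 206 CPM, overlapped the MxCre libraries at 163, 171 and 143. The difference of 0.97 (SE 0.212, adjusted p = 0.0138) was lost without DeltaMxCre 3 (adjusted p = 0.0719). The transcription factors Erg and Mycn fell 2.13-fold and 1.99-fold on block, with deletion effects of 0.55 (SE 0.216) and 0.33 (SE 0.225). The Mycn call for the difference (adjusted p = 0.0433) was lost without any 1 of 10 of the 12 libraries, at adjusted p values up to 0.115.

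Of the 29 that rose, Gata3, a master transcription factor of early T cells (chromosome 2, 9857078 to 9890034, minus strand), stood at 249, 244 and 253 CPM in AntiNRR against 152, 152 and 127 in IgG. Its DeltaMxCre libraries held 142, 148 and 162 CPM against 197, 134 and 184 in MxCre, which overlap. The block effect was 0.79 (SE 0.108, adjusted p = 5.46e-05), and the difference -0.98 (SE 0.186, adjusted p = 0.00405). Satb1, a chromatin organiser of thymocytes (chromosome 17, 51736187 to 51833290, minus strand), rose 1.46-fold on block, and its difference of -0.72 (SE 0.148, adjusted p = 0.00804) was lost without IgG 2 (adjusted p = 0.0537). Myo1c, an unconventional myosin, rose 2.61-fold, from 30.9, 28.8 and 31.0 to 76.5, 71.6 and 88.8 CPM (chromosome 11, 75650504 to 75673910, plus strand). Jund, a member of the AP-1 family, rose 1.86-fold, Anxa2, a membrane-binding annexin, 1.94-fold, the lysosomal protease Ctsd 1.56-fold and the potassium channel Kcnh3 2.01-fold.

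Cdkn1a, which encodes the Cdk inhibitor p21, stood at 64.0, 48.3 and 42.1 CPM in AntiNRR against 30.2, 30.3 and 28.8 in IgG and rose 1.73-fold. Its DeltaMxCre libraries were all below MxCre, at 19.5, 18.8 and 16.7 against 28.7, 25.5 and 23.4 CPM, without a called deletion effect. The difference of -1.29 (SE 0.295, adjusted p = 0.0209) was lost without DeltaMxCre 3, MxCre 1, AntiNRR 1, IgG 2 or IgG 3, at adjusted p values up to 0.095. Cpa3, a protease of mast cells and progenitors named after its values were seen, rose 5.80-fold, from 29.5, 14.6 and 20.6 to 154, 117 and 104 CPM.

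Gzma, which encodes granzyme A of cytotoxic cells, stood at 239, 214 and 218 CPM in AntiNRR against 136, 123 and 111 in IgG. Its DeltaMxCre libraries held 100.1, 94.1 and 71.2 CPM against 167, 88.1 and 197 in MxCre. The AntiNRR libraries were above all IgG libraries, the deletion groups overlapped, and the difference of -1.63 (SE 0.324, adjusted p = 0.0269) was lost without any 1 of 9 of the libraries, at adjusted p values up to 0.109. The summed level of the 13 natural killer and innate lymphoid markers, a list that includes Gzma, was 240 to 268 CPM in AntiNRR against 132 to 162 in IgG, and 104 to 134 in DeltaMxCre against 105 to 212 in MxCre. Most of this sum was Gzma itself. The other 12 markers summed to 21.0 to 28.7 CPM in AntiNRR against 21.7 to 26.7 in IgG, which overlap, and to 32.4 to 35.1 in DeltaMxCre against 15.4 to 20.7 in MxCre, which do not. Ncr1, Klrd1 and Gzmb were at 0 in all 4 groups. The 6 gamma-delta markers in the table summed to 169.6 to 176 CPM in AntiNRR against 88.4 to 108 in IgG, with Il17a at 0, and without Sox13, the most abundant, to 63.7 to 85.8 against 41.9 to 49.7. On deletion the 6 summed to 103.9 to 134 CPM in DeltaMxCre against 76.9 to 109.7 in MxCre, which overlap. Without Sox13 they summed to 63.9 to 103.9 against 36.1 to 56.8, which do not, so the other 5 were higher in both experiments. Of the 7 markers of early precursors, Kit stood at 157 to 216 CPM in AntiNRR against 95.0 to 113 in IgG, and the other 6 together at 12.2 to 16.8 against 8.39 to 16.8, which overlap. The 13 stromal markers summed to 456 to 574 CPM in DeltaMxCre against 309 to 418 in MxCre, with Krt5, Krt8, Foxn1, Col1a2 and Col3a1 at 0. Cdh1 among them stood at 255, 215 and 265 CPM against 117, 162 and 70.5. Pecam1, at 142, 171 and 228 CPM against 189, 182 and 172, and Epcam, at 66.7, 55.9 and 67.6 against 65.5, 67.8 and 61.4, overlapped. Psmb11 did not, at 8.00, 9.87 and 13.0 CPM against 2.27, 4.62 and 4.52. The higher stromal sum therefore came mostly from Cdh1. The part of these shifts in the results above was not tested.

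The deletion effect had the opposite sign to the block effect in 72 of the 78 genes (92.3%), again raised by the demand for a called difference. The class held 42 genes without IgG 2, 39 without IgG 3 and 118 without MxCre 3. Of the 78 genes, 40 remained with the Malat1 share, which goes with the deletion, as a covariate, and 9 when the difference was fitted on all 24 libraries.

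**Figure D3:**
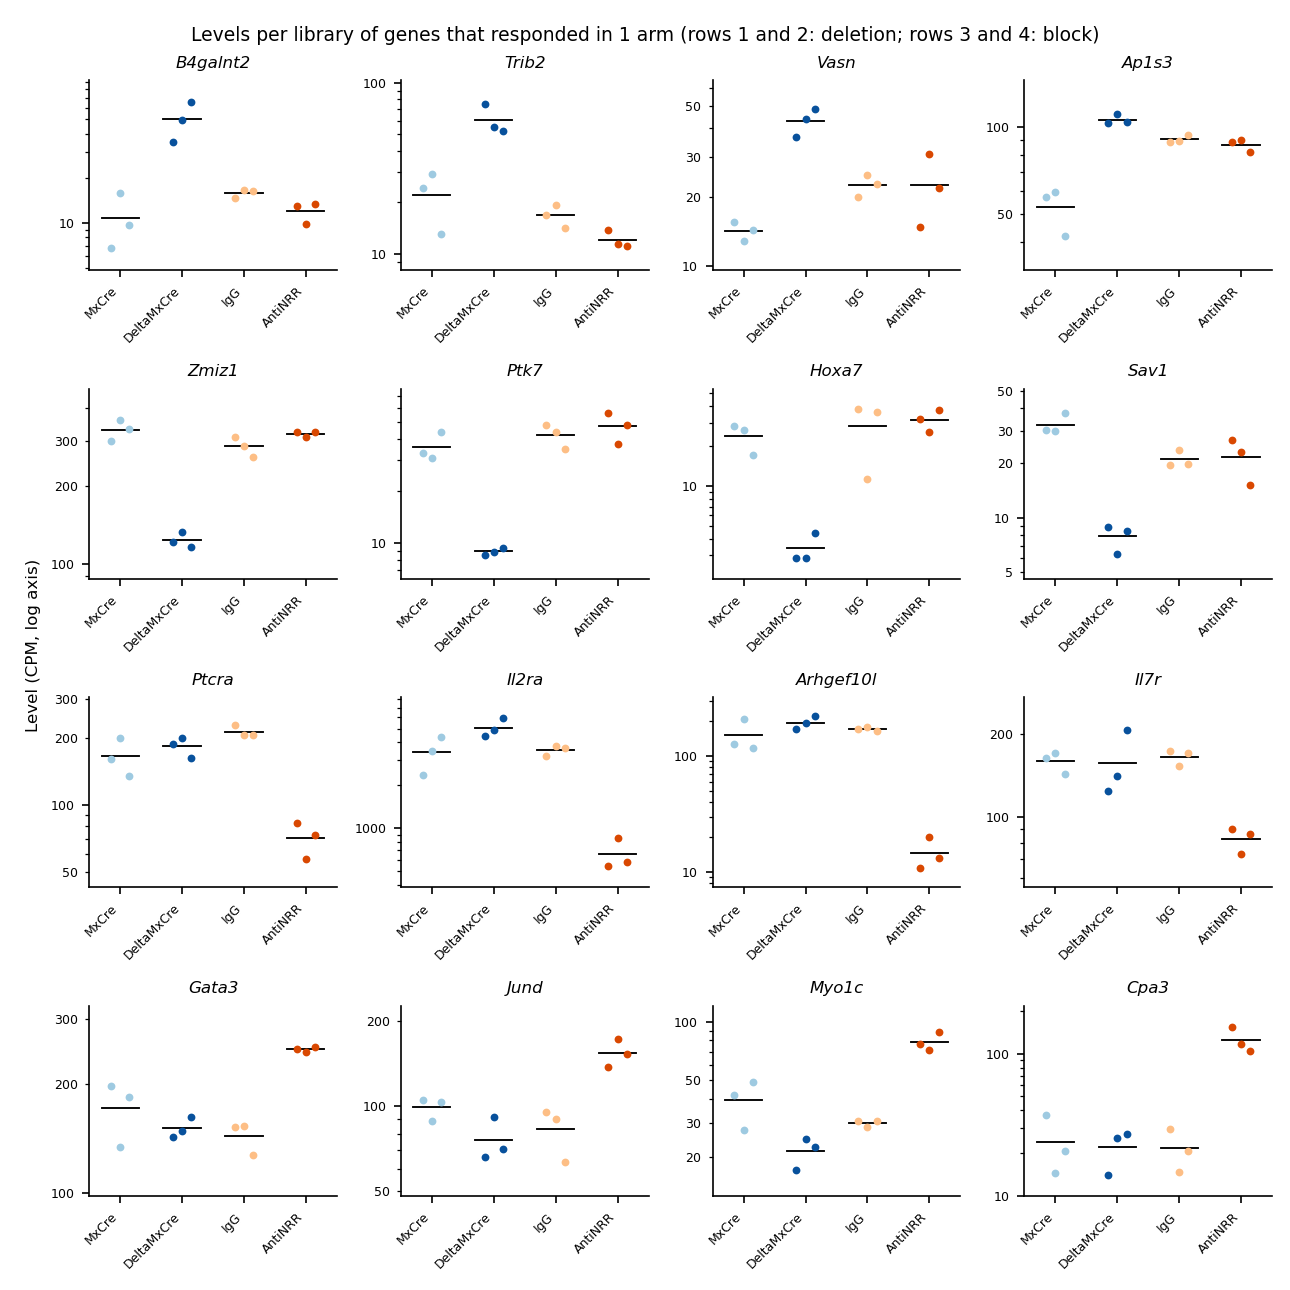
CPM on a log axis in each of the 12 libraries for 16 genes called in 1 experiment and in the difference, with points for libraries and lines for group means. In the upper rows the DeltaMxCre libraries stand apart (Hoxa7 at 2.86 to 4.46 CPM against 17.0 to 28.4 in MxCre), and in the lower rows the AntiNRR libraries do (Ptcra at 57.1 to 83.3 CPM against 206 to 228 in IgG).

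Among the genes whose difference passed without a called effect in either experiment, Tcf7, an HMG-box factor of T-lineage entry, stood at 1028, 949 and 936 CPM in DeltaMxCre against 1558, 1207 and 1354 in MxCre. Its AntiNRR libraries held 1311, 1297 and 1245 CPM against 1209, 1101 and 1068 in IgG. No groups overlapped in either experiment, and the difference was -0.69 (SE 0.151, adjusted p = 0.0144), lost without IgG 2 (adjusted p = 0.0598) or IgG 3 (adjusted p = 0.079). Dsp, the desmosome protein desmoplakin, had 0 counts in the AntiNRR libraries against 60 in the IgG libraries, at least 17.1-fold lower, and stood at 4.89, 3.94 and 13.8 CPM in DeltaMxCre against 0.239, 3.25 and 3.61 in MxCre. The adjusted p of its difference was 0.00718 and was 0.0641 without DeltaMxCre 3. Hspg2, the heparan sulfate proteoglycan perlecan, had a difference of -4.47 (SE 1.15, adjusted p = 0.0481) from levels of at most 8.71 CPM, and its call was lost without any 1 of 9 of the libraries, at adjusted p values up to 0.138. Cd2, an adhesion receptor of T cells that was too low to be tested for the block, stood at 19.8, 12.0 and 10.1 CPM in DeltaMxCre against 1.49, 0.999 and 11.1 in MxCre. Its AntiNRR libraries held 0.00, 0.00 and 0.0759 CPM against 0.627, 0.757 and 0.372 in IgG. The difference passed at an adjusted p of 0.0294, and did not pass when DeltaMxCre 1 or any of the 6 antibody libraries was left out.

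Several Notch genes passed in the block without a called difference. Notch1 itself stood at 1910, 2284 and 2033 CPM in AntiNRR against 3132, 3025 and 2894 in IgG, and at 2845, 3047 and 2862 in DeltaMxCre against 2888, 3218 and 2758 in MxCre. It fell 1.45-fold on block with no overlap, and its difference was 0.52 (SE 0.145, adjusted p = 0.0757). Notch3 fell 1.71-fold on block and had a deletion effect of -0.35 (SE 0.159, adjusted p = 0.292) and a difference of 0.41 (SE 0.187, adjusted p = 0.356). Hes1, the bHLH repressor that is a direct Notch target, fell 1.66-fold on block, with a deletion effect of 0.20 (SE 0.152) and a difference of 0.91 (SE 0.275, adjusted p = 0.111).

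Myc stood at 69.7, 70.0 and 64.8 CPM in AntiNRR against 178, 111 and 117 in IgG, and at 108, 76.7 and 79.1 in DeltaMxCre against 237, 135 and 106 in MxCre. The AntiNRR libraries were all below IgG, and DeltaMxCre 1 overlapped MxCre 3. The block effect was -0.99 (SE 0.156, adjusted p = 0.000253), the deletion effect -0.84 (SE 0.287, adjusted p = 0.211) and the difference 0.13 (SE 0.398, adjusted p = 0.935). For Nrarp, a Notch feedback inhibitor at 1.38 to 16.3 CPM, no effect passed and the difference was 0.98 (SE 0.747).

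By gene list, the 23 tested Notch target genes divided both ways. The difference passed as positive in 4, Dtx1, Ptcra, Il2ra and Trib2, and as negative in 3, Gata3, Tcf7 and Cdkn1a. The deletion effect passed upward in 2 of the 23 and downward in 2, the block effect upward in 3 and downward in 7, and the median difference was 0.02 beside -0.01 over all genes. Of 32 receptors, processing enzymes and Rbpj complex members, 0 passed in the difference by edgeR, with a median of -0.14, while 7 had an unadjusted p under 0.05 and DESeq2 called 3. Over all genes 1696 differences had an unadjusted p under 0.05. Of 10 genes that mark the DN3 stage, 3 passed as positive (Il2ra, Ptcra and Dtx1), 7 fell on block, beside 2.96% of all genes, and 1 rose and 1 fell on deletion. All but Rag1 and Rag2 also stand in the Notch lists above, so this is no separate reading of the stage. Rag2, Cd3e and Bcl11b had block effects of -0.27, -0.27 and 0.23 that did not pass. The median effects were -0.64 for the block and 0.05 for the deletion. Of the 22 genes of the pre-T-cell receptor and its proximal signalling, Ptcra alone passed in the difference. Rasgrp1, Themis and Cd5 rose on deletion, and Cd247, Rasgrp1 and Themis were among those that rose on block, where Ptcra, Cd3d and Cd3g fell.

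Of 58 Myc targets, most of them ribosome biogenesis genes, 34 fell on block and 0 rose, and 1, Nop56, fell on deletion. Over all genes tested, 2.96% fell on block and 0.458% on deletion, and 6705 of 13557 differences (49.5%) lay above 0. Their median block effect was -0.60 and their median deletion effect -0.32, and 49 of the 58 differences lay above 0 with a median of 0.25, but Timm8a1 alone passed, at 1.60 (SE 0.320, adjusted p = 0.00651). Of 38 DNA replication genes 3 fell on block and 0 passed on deletion in edgeR (7 at an unadjusted p under 0.05, 0 in DESeq2), with medians of -0.33 and -0.25. Over all genes an unadjusted p under 0.05 was found in 16.1% for the deletion, 16.9% for the block and 12.5% for the difference. Of 31 mitosis genes 0 passed in edgeR or in DESeq2 for either effect or for the difference (at an unadjusted p under 0.05, 1 for the block and 0 for the others), with medians of 0.04 and -0.09. These medians depended on the fit. With the Malat1 share, which goes with the deletion, as a covariate, the median difference of the mitosis genes went from -0.06 to 1.36. That of the DNA replication genes went from 0.11 to 0.85, and that of the Myc targets from 0.25 to 0.46. Of 84 tested cytosolic ribosomal protein genes 8 fell on block and 2, Rps19 and Rpsa, on deletion, with medians of -0.25 and -0.31. In the difference 0 of 85 passed in edgeR and 0 in DESeq2, with 8 at an unadjusted p under 0.05.

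The 15 tested stem and progenitor genes had a median difference of -0.59, which over the alternatives ran from -1.54 (without IgG 1) to -0.02 (without IgG 3). Mycn and Erg passed as positive, and Hoxa7 and Fat4 as negative. Cd44, Bcl11a, Hoxa7 and Fat4 fell on deletion, and the median deletion effect over 13 genes was -1.57 beside a median block effect of 0.15 over 12. A gene was tested where its counts passed the filter in 1 group, and members low in every group were left out. Genes that entered through the higher MxCre level alone, which such a filter allows, push this median down. In the tamoxifen libraries the median deletion effect was 0.22 over 18 tested members. Cd44 stood at 0.699, 0.755 and 0.551 CPM in DeltaMxCre against 7.23, 5.99 and 3.78 in MxCre, and its difference of -3.27 (SE 0.955, adjusted p = 0.0967) did not pass. Of 18 immediate early genes, a list sensitive to handling of cells, Jund alone passed, while 4 differences lay above 0 and the median was -0.68. Of 25 genes of actin filaments and the Hippo pathway, Fat4, Sav1 and Cdc42ep4 passed as negative, beside 0.472% of all genes. Fat4 also stands in the stem and progenitor list. Both lists were chosen with earlier results of these data known, so these counts partly restate that choice. Evl, an actin regulator of the list named after its values were seen, rose 4.64-fold on deletion with a difference of 1.46 (SE 0.402, adjusted p = 0.0717).

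Of 32 type I interferon response genes, Trim30a and Parp14 rose on deletion. By edgeR and by DESeq2 0 passed on block and 0 in the difference, with 5 and 6 at an unadjusted p under 0.05. The median difference was 0.44, and 25 of the 32 lay above 0, beside 49.5% of all genes. With the Malat1 share, which goes with the deletion, as a covariate, that median was 0.06. The medians were 0.59 for the deletion and 0.19 for the block. Both pI-pC groups had received this interferon inducer 8 weeks earlier. Of 18 cytokine receptor and Jak-Stat genes, Il7r and Il2ra passed in the difference, and Il31ra, Cish, Bcl2 and Pim1 rose on deletion. Among 20 p53 targets Cdkn1a alone passed in the difference, and among 18 glycolysis genes 0 did by edgeR or DESeq2, with 2 at an unadjusted p under 0.05.

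**Figure D4:**
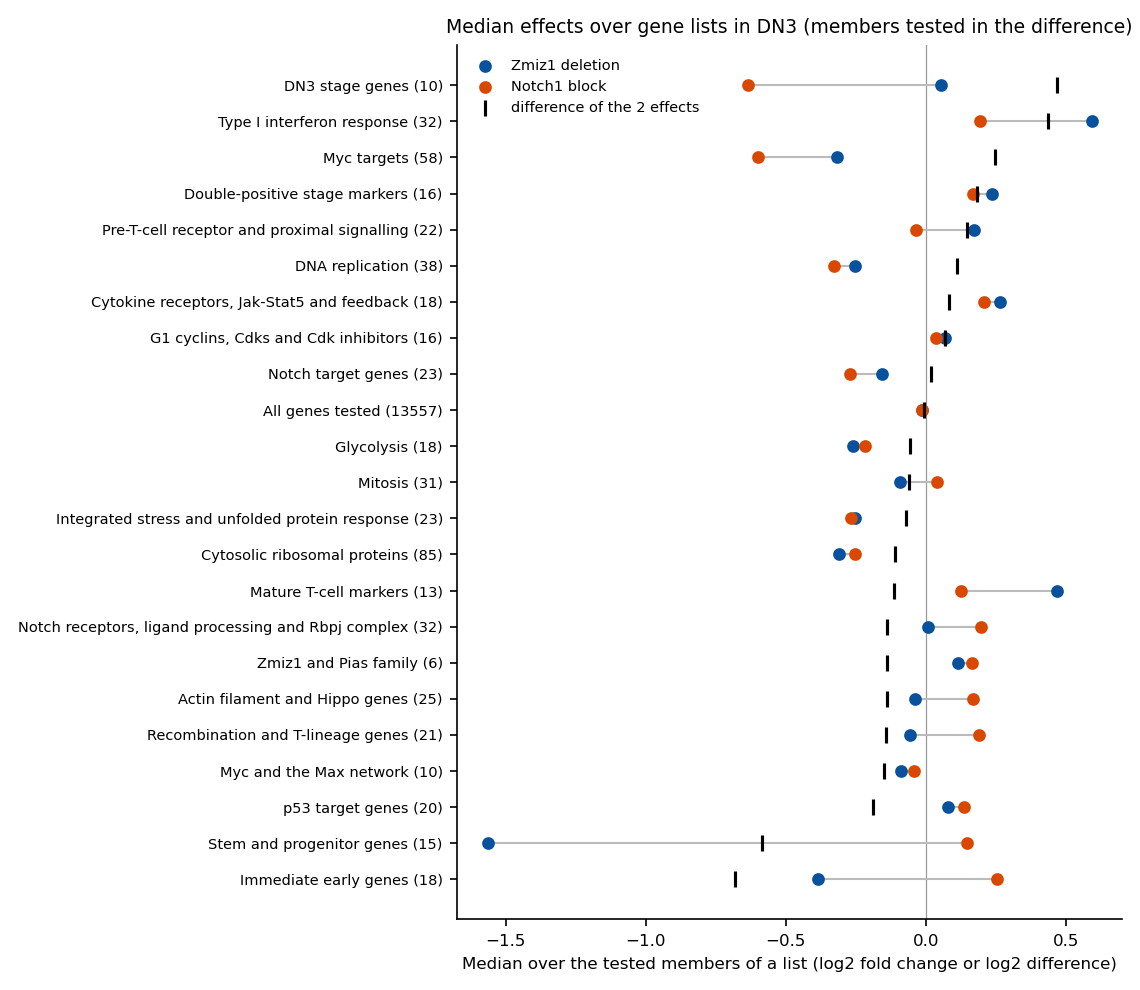
Median log2 deletion effect, block effect and difference over the tested members of each gene list, sorted by the difference, with the number of members tested in the difference in brackets. Myc targets have negative medians for both effects (-0.32 and -0.60), the DN3 stage genes a negative one for the block only (-0.64), and the stem and progenitor genes one for the deletion only (-1.57). Most DN3 stage genes are also members of the Notch lists. Members too low in every group were not tested.

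The tamoxifen libraries gave a look at the deletion in samples the classes did not use. They compare DN3 cells in which a Cre switched on by tamoxifen deleted Zmiz1f/f (DeltaTamCre) with cells of mice that carry that Cre alone (TamCre), 4 libraries each, made with another kit. These cells were sorted at 43 to 44 hours, against 8 weeks for the pI-pC groups. Time, agent and kit therefore cannot be told apart where the 2 deletions are compared. The deletion effect there passed in 11 of 13298 genes (0.0827%), 7 higher (0.0526%) and 4 lower (0.0301%). Zmiz1 fell from 354, 322, 301 and 312 to 201, 243, 184 and 188 CPM, an effect of -0.66 (SE 0.0971, adjusted p = 0.0368), smaller than the -1.41 after pI-pC. Among the opposite genes 13 of 15 had the sign of the pI-pC deletion effect, among shared genes 25 of 26, among deletion-only genes 43 of 44 and among block-only genes 48 of 78, beside 8211 of 11810 genes of all (69.5%). Of the 15 opposite genes 0 passed in edgeR and 1 in DESeq2, and 6 had an unadjusted p under 0.05 with the same sign.

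Dtx1 stood at 489, 650, 639 and 566 CPM in DeltaTamCre against 576, 505, 445 and 467 in TamCre, which overlap, an effect of 0.23 (SE 0.11, adjusted p = 0.336). Spats2 stood at 55.6, 58.2, 57.7 and 60.8 CPM against 97.1, 68, 72.3 and 71.8, without overlap (effect -0.41, SE 0.105, adjusted p = 0.129). Among shared genes 2 passed in edgeR and 12 in DESeq2, and 21 had an unadjusted p under 0.05. For deletion-only genes these counts were 1, 8 and 14, and for block-only genes 1, 3 and 12. Over all genes 15.6% had an unadjusted p under 0.05 there. The 2 shared genes called in edgeR were Cd53 and Jakmip1. Cd53 rose from 43.1, 44.7, 46 and 49 to 57.4, 72.1, 81.4 and 73.1 CPM (effect 0.64, adjusted p = 0.0488), and Jakmip1, a microtubule-linked protein named after its values were seen, from 24.6, 28.7, 25.6 and 25.3 to 40.1, 42.9, 50 and 43 CPM (effect 0.76, adjusted p = 0.0131). Lef1 stood at 178, 215, 204 and 225 CPM in DeltaTamCre against 440, 271, 276 and 283 in TamCre, all lower, with an effect of -0.62 (SE 0.154, adjusted p = 0.128). Hoxa7 and Ptk7, which fell 6.93-fold and 3.95-fold after pI-pC, had tamoxifen effects of -0.02 (SE 0.109) and 0.02 (SE 0.0904) with overlapping groups. Gzma, of the block-only class, fell (effect -0.70, SE 0.104, adjusted p = 0.0368). The tamoxifen calls depended on single libraries, with 5, 4 and 1 genes called without DeltaTamCre 2, 3 and 4, and 2, 6, 0 and 0 without TamCre 1, 2, 3 and 4.

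**Figure D5:**
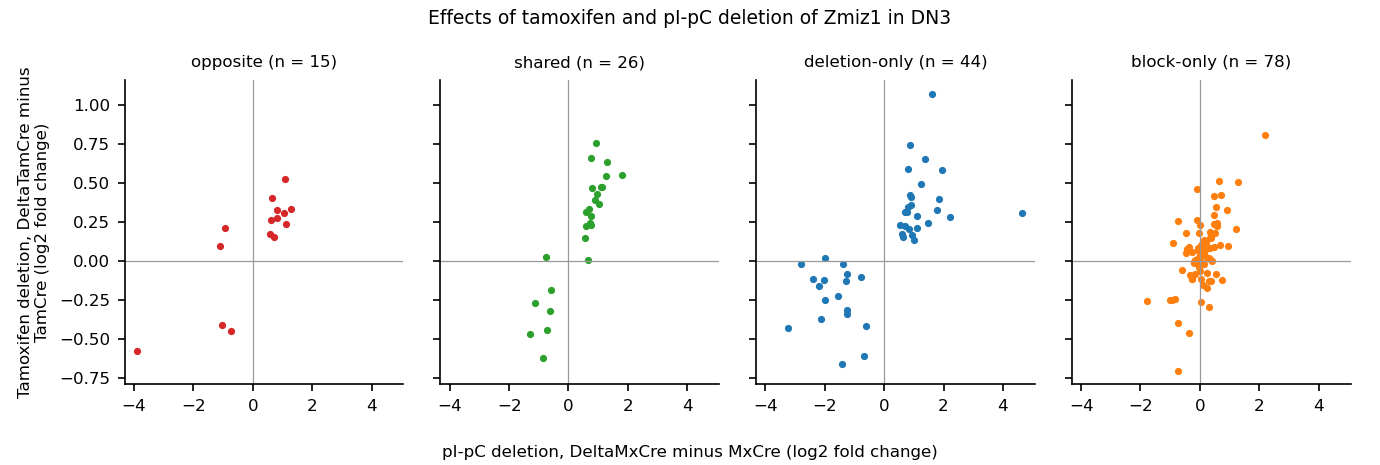
Log2 effect of deletion by tamoxifen (vertical) against that by pI-pC (horizontal) in DN3, 1 point per gene, in 4 panels for 15 opposite, 26 shared, 44 deletion-only and 78 block-only genes. Most points of the first 3 panels lie where both effects have the same sign, at smaller sizes on the tamoxifen axis. The tamoxifen libraries were sorted at 43 to 44 hours and the pI-pC libraries at 8 weeks.

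Early T-cell precursors (ETP) of the same 4 treatments gave values at an earlier stage, compared with no test. The ETP deletion effect had the sign of the DN3 one in 15 of 15 opposite genes, and the ETP block effect that of DN3 in 12 of 15. For shared genes these counts were 19 and 26 of 27, for deletion-only genes 39 and 17 of 44, and for block-only genes 54 and 65 of 75, beside 6909 and 6819 of all 11447 genes. In ETP the 2 effects were 3.18 and -3.01 for Dtx1, 2.54 and -1.34 for Bst1, 3.56 and -2.41 for Ptcra, and 1.27 and -1.91 for Il2ra, deletion first. Ptcra and Il2ra had large ETP effects of opposite sign, while in DN3 their deletion effects did not pass. Rag1, which fell in both DN3 experiments, had ETP effects of 1.40 and -1.22.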

How the data were processed

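RNA of sorted thymocytes was sequenced. The deposited tables give unscaled estimated counts for each library by gene symbol. Per the submitters' processing notes, the authors used Cuffdiff 2.1.1, Cufflinks, mm10 as the build, TopHat2 2.0.9, FastQC 0.10.0 and Bowtie2 2.1.0.0, with no role or order given. The annotation, the counting settings and the use of strand are not given in the sources used here, so overlapping genes, antisense genes and close copies may share reads. Per the labels' protocols, ribosomal RNA was depleted with RiboGone and the 12 libraries were made with a SMARTer low-input kit, the tamoxifen DN3 libraries with TruSeq. In the 12 libraries 0.649% to 0.863% of values were not whole (tolerance 0.01), and all were rounded before testing.

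Tests ran in R 4.3.3 with edgeR 4.0.16 (filterByExpr by group, minimum count 10, minimum total 15, TMM, robust quasi-likelihood F test, prior count 0.125, Benjamini-Hochberg over all genes tested). The difference came from 1 fit of the 12 libraries with 4 groups, and each effect from the 6 libraries of its experiment. Classes were counted over the 12275 genes tested in all 3. SE is the absolute log2 value over the square root of F. CPM are TMM-scaled over the 12 libraries. On simulated counts for 13195 genes, the test of the difference recovered 35% of 100 genes changed by 1 log2 unit and 81% of 100 changed by 2, and 4.13% of its calls were false.

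Genes were named by a rule. It takes Zmiz1, Notch1, Notch3, Dtx1, Hes1, Nrarp, Ptcra, Il2ra and Myc, the opposite genes with the lowest p of the difference, the 6 rising and 6 falling genes of the other classes with the lowest p, the 6 largest differences of each sign, and up to 3 genes per list, at a mean of at least 5 CPM and without unnamed models. The members, lists and rule were chosen with earlier results of these data known. Positions are from GENCODE M21 on GRCm38, matched by symbol for 254 of 261 genes, and promoters from RefSeq on GRCm38.p6, for 9769 of 12275. Alternatives were DESeq2 1.42.0, other filters and size factors, a spread shared by all groups, a fit of 24 libraries, a replicate block, the Malat1 share as a covariate, and each library left out in turn. Ribosomal protein genes of the tamoxifen libraries and a few other items are not reported here.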

Additional observations from a re-analysis of the deposited data

Results flagged for a closer look

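In the tamoxifen DN3 groups of 4 libraries, 4 of 46 groups checked held 1 library far from the others by Dixon's criterion, which chance meets in about 1 of 20 groups. Abhd15 stood at 47.1 CPM in 1 TamCre library, with the nearest at 59.3. Fat4 stood at 5.37 CPM in 1 DeltaTamCre library, with the nearest at 3.26. Nynrin stood at 25.3 CPM in the same DeltaTamCre replicate, with the nearest at 18.3. Spats2 stood at 97.1 CPM in 1 TamCre library, with the nearest at 72.3. All 4 genes belong to the 15 with opposite responses. Those 15 were by choice most of the 23 genes checked, so this sets the class apart from no other.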

How the results depend on the processing

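Under the alternatives run, no called value changed sign. DESeq2 called more genes, 343 for the difference, 520 for the deletion effect and 412 for the tamoxifen effect, and gave 33 opposite, 84 shared, 134 deletion-only and 121 block-only genes. Without a filter beyond 1 count the deletion effect passed in 347 genes, and 63 were shared and 78 deletion-only. A spread shared by all 4 groups gave 399 deletion calls and 66 shared genes, the Malat1 covariate 113 deletion calls and 10 shared genes, and a fit of all 24 libraries 20 calls for the difference. The Malat1 share does not overlap between MxCre and DeltaMxCre, so that covariate cannot be fully told apart from the deletion. Leaving out 1 library at a time gave 99 to 290 calls for the difference, 12 to 403 for the deletion, 351 to 677 for the block and 0 to 8 for tamoxifen, and 3 to 33 opposite, 0 to 63 shared, 5 to 101 deletion-only and 39 to 118 block-only genes. Same-numbered libraries deviated together in neither experiment (correlations of -0.0653 to 0.0469, and -0.582 to -0.0111 for tamoxifen). With so few libraries this does not settle whether the numbers mark pairs. With the replicate block the counts were 185 for the difference, 227 for the deletion effect, 872 for the block effect and 0 for tamoxifen, and 18 opposite, 39 shared, 58 deletion-only and 77 block-only genes. The cause of these shifts was not tested. Among named genes' differences under settings that keep all libraries, 840 values kept their side of the threshold, 20 moved past it and 66 fell short of it. Of the list medians of the difference, 56 of 209 moved under those settings and 111 of 360 with 1 library left out. With 3 libraries per group, changes of 1 log2 unit were often missed in simulation, so an effect that did not pass is not shown to be absent.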
